A study of Mus musculus with 4 samples.

Results

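The genes described here make, move and receive GABA, glycine and glutamate, and were chosen by name as 34 genes of the 24971 counted in E12.5 mouse neural tubes. They comprise 20 genes of inhibitory transmission (GABA and glycine) and 14 of excitatory transmission (glutamate). RNA-seq was done on 4 libraries of the C57BL/6 background, and each library pooled neural tubes of littermates that shared a genotype. The 2 control libraries are labelled WT, and the other 2 are labelled Lbx1Δ/Δ, with replicate numbers 1 and 2 in each group. Lbx1 encodes a homeodomain factor of dorsal spinal cord interneurons, and the comparison of the labels asks which transcripts differ without it. The labels state neither the deleted part of Lbx1 nor the number of tubes in a pool.

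In the mature spinal cord GABA and glycine open chloride channels and mostly inhibit, while glutamate opens cation channels and excites. In the embryo the chloride gradient of young neurons differs, and GABA can depolarise them before synapses are in place. Dorsal horn interneurons that arise from Lbx1-expressing cells split into a GABAergic and a glutamatergic population. The transmitter enzymes and vesicular transporters therefore serve as their markers, although ventral and other neurons use the same genes.

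Library totals were 16853984 to 20579803 counts, so a count of 0 allowed a level of at most 0.146 to 0.178 CPM, or counts per 1000000 counts of the library (3 counts, counting error only). Lbx1 itself had 819 and 1379 counts in WT 1 and 2, and 1946 and 6520 in the libraries labelled Lbx1Δ/Δ 1 and 2. This goes against the label, and whether the counted transcript includes the deleted part is not stated, so genotype directions below hold only for the labels. Genes of neural progenitors and of neurons were present in each library, with Sox2 at 255 to 300.2 CPM and Tubb3 at 1766 to 3748 CPM. Pax6 and Syt1, which have 8 RefSeq accessions each in the files, had 0 counts in each library. Nothing in the labels says that a replicate number marks a shared litter, and p-values measure the spread between these pools.

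Among the best counted members were the 3 genes of the GABAergic presynaptic machinery. Gad1 and Gad2 encode the enzymes that make GABA from glutamate, and Slc32a1 encodes the transporter that loads GABA and glycine into vesicles. All 3 changed together between the replicate numbers, as described further on, so the 250 bases before their RefSeq starts are shown, with CG dinucleotides in capitals (RefSeq, build GRCm38.p6). All are on the plus strand: chr2:70561879-70562128 for Gad1, chr2:22622077-22622326 for Gad2 and chr2:158610508-158610757 for Slc32a1.
Gad1: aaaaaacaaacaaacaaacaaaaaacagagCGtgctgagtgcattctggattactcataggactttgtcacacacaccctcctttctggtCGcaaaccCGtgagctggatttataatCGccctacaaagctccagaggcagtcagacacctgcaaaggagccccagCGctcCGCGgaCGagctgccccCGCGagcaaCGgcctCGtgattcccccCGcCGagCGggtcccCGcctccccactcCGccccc
Gad2: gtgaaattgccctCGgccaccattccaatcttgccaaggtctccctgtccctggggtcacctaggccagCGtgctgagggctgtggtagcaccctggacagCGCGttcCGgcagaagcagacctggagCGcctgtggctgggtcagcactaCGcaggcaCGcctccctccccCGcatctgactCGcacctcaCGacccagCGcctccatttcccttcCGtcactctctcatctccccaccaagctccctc
Slc32a1: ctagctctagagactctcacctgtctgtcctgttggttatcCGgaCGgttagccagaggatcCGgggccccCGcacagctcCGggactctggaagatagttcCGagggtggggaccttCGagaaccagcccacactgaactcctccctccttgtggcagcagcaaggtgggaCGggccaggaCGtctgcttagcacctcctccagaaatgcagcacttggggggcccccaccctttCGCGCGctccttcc

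The stretches hold 17, 13 and 12 CG dinucleotides for Gad1, Gad2 and Slc32a1. A RefSeq promoter entry was matched for 26 of the 34 members, among them the 15 that could be tested. CG counts of these 15 ran from 1 for Gabrg1 to 42 for Grik3, with a median of 16. The median was also 16 over the 8283 tested genes with an entry, and 6 over all 27025 genes with one. Of 4 motifs searched on both strands, the E-box CAGCTG of proneural factors was in 0 of the 15 stretches (13.0% of all 32851 promoter stretches). The homeodomain core TAATTA was in that of Gabrg1 alone (4.84% of all). TATAAA, the core of the TATA box, was matched in that of Gad1 alone (12.4% of all). The match reads tttata in the stretch shown, so it is on the opposite strand and does not show that Gad1 has a TATA box. TTCAGCACC, a part of the element bound by the neuronal repressor REST, was in 0 (0.301% of all). These shares count every promoter stretch, of genes tested or not, whereas members were counted per gene, so the comparison is rough.

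Of the 34 members, 13 had at least 10 counts in every library: 8 inhibitory and 5 excitatory. Members counted through a single accession were mostly above that line, with 10 of 12, whereas 3 of the 22 members with several accessions were. Over all genes the shares with at least 10 counts in every library were 48.0% of 17047 genes with 1 accession and 19.4% of 7924 with several. How reads shared by several transcripts of a gene were counted is not given in the sources used here. A low count of a gene with several accessions therefore does not show that its RNA was low.

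**Figure D1:**
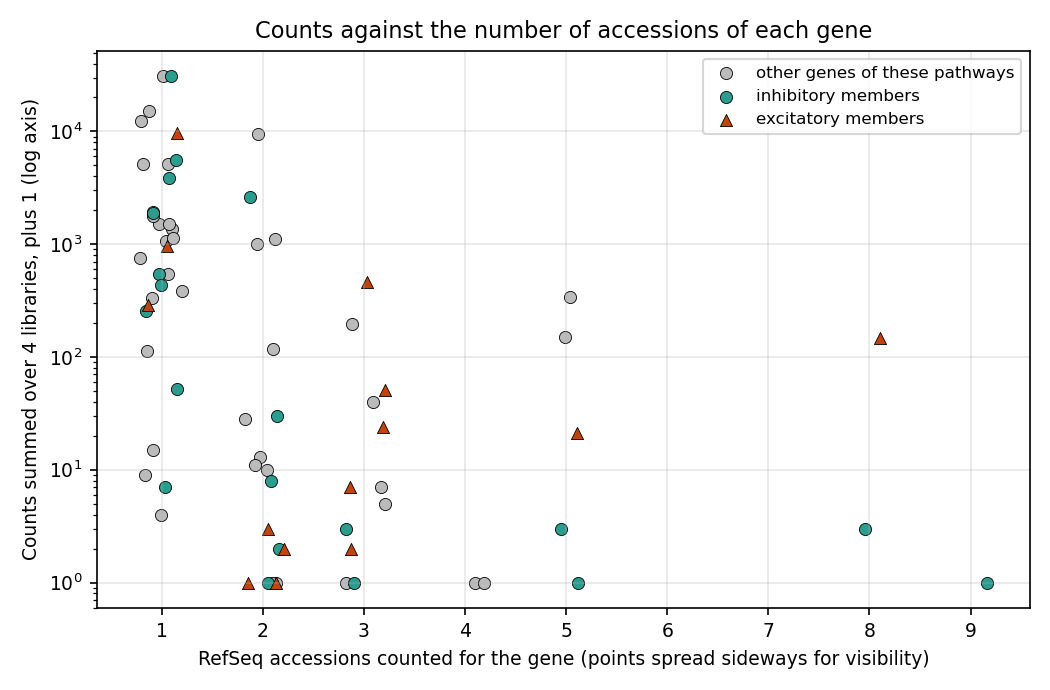
Each point is a gene, placed by the number of RefSeq accessions counted for it (horizontal axis) and by its counts summed over the 4 libraries plus 1 (vertical log axis), for inhibitory members, excitatory members and other genes of these pathways. Most genes with 1 accession lie high (Glra3, at 6 counts, does not), and the 6 members at 0 counts all have 2 or more accessions.

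Among the genes that make, load or clear the inhibitory transmitters, Gad2 was the most counted. It had 960 and 2023 counts in WT 1 and 2, and 635 and 1963 in the libraries labelled Lbx1Δ/Δ 1 and 2. Slc32a1 had 649, 1310, 511 and 1416 counts in the same order. Gad1 had 400, 848, 367 and 983, and 1 of its 2 accessions held 95.9% of them. Abat, which encodes the enzyme that breaks down GABA, had 5 to 11 counts per library. Slc6a5, the glycine transporter GlyT2 that marks glycinergic neurons, had 1 to 3 counts over its 2 accessions, which were matched to the same GENCODE transcript model. Its counts do not show whether glycinergic neurons were present.

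Of the GABA-A receptor subunits, which form the chloride channel that GABA opens, 3 of 8 had at least 10 counts in every library. Gabra2 had 104, 182, 49 and 204 counts in WT 1, WT 2 and the libraries labelled Lbx1Δ/Δ 1 and 2. Gabrg1 had 63, 144, 56 and 174, and Gabrg3 had 47, 81, 53 and 74. Gabrb1, with a single accession, had 7, 17, 5 and 22 counts. Gabra3 and Gabra4, with 5 and 9 accessions, had 0 counts in each library, and Gabra5 and Gabrb2 had at most 2 and 1. All 3 detected subunits were counted through 1 accession, as was Gabrb1, which fell short of the line.

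The GABA-B receptor, a G protein-coupled receptor built from both of its subunits, was counted far more. Gabbr1 had 5946, 9088, 5122 and 10812 counts, and Gabbr2 had 289, 677, 197 and 717, in the order used above. Gabbr2 had 0.0486 and 0.0745 counts per Gabbr1 count in WT 1 and 2, and 0.0385 and 0.0663 in the libraries labelled Lbx1Δ/Δ 1 and 2. The ratio was higher in both number 2 libraries. Levels of different genes are compared further on, per transcript length.

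Glycine receptor genes gave almost no counts. Glra3, an alpha subunit with a single accession, had 0, 2, 0 and 4 counts, so it was at or near the limit of 3 counts. Glra1, Glra2 and Glrb have 2, 3 and 8 accessions and had at most 1 count in any library. Gphn, which encodes gephyrin, the scaffold that anchors glycine and GABA-A receptors, had 0 counts in each library. In the GENCODE models, 486 of the 3678 exonic bases of Gphn (13.2%) belong to only 1 of its 2 accessions. Whether the lack of counts reflects its RNA or its counting was not tested.

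On the excitatory side, Grik3, a kainate receptor subunit, was the most counted member, with 1606, 2985, 1303 and 3836 counts. Grin2d, an NMDA receptor subunit of embryonic and ventral neurons, had 183, 268, 140 and 378. Gria4 and Gria2, AMPA receptor subunits, had 52 to 172 and 12 to 60 counts per library over 3 and 8 accessions. Slc17a7, the vesicular glutamate transporter VGLUT1, had 73, 89, 44 and 83 counts. Grin1, the obligatory NMDA receptor subunit, had 3, 19, 6 and 22 counts over 3 accessions, of which 1 held all of them. These 6 genes, with the 9 inhibitory ones described above, were the 15 members that passed the low-count filter of the test.

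The other 8 excitatory members had between 0 and 8 counts in any library. Grik5 and Grm5 had 0 counts in each library, and Gria1, Grik2, Grin2b and Grin3a had at most 3. Gria3 had 0, 8, 4 and 8 counts, and Grik1 8, 3, 4 and 8. For Grin2b, a developmental NMDA receptor subunit, 16654 of 24099 exonic bases in the GENCODE models (69.1%) belong to only 1 of its 2 accessions, and 0, 1, 0 and 1 counts were found. For Grm5, a metabotropic receptor, 3739 of 8143 bases (45.9%) do, with 0 counts. For Gria1, Grik5 and Grin3a the shares were 6.69%, 5.70% and 0.801%, which leaves little sequence that a single accession holds. Low counts thus came with much sequence of a single accession for Grin2b and Grm5, and with little for the other 3 of these genes.

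Per kilobase of transcript, levels can be set side by side for the 11 tested members with 1 accession. Gabbr1 was highest in each library, with a mean of 84.0 CPM per kilobase (55.1 to 122). Slc32a1, Grik3 and Gad2 followed, with means of 19.9, 15.5 and 13.9 CPM per kilobase. Their ranges over the libraries overlapped (10.6 to 30.0, 8.42 to 25.4 and 6.41 to 20.8), and Gad2 was above Grik3 in WT 2 only. Gabbr2 had a mean of 4.69 and Grin2d of 2.54 CPM per kilobase. Slc17a7, Gabrg1 and Gabra2 had means of 1.40, 1.32 and 1.31, which do not differ beyond their ranges. Gabrg3 was at 0.372 and Gabrb1 at 0.0535 CPM per kilobase.

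**Figure D2:**
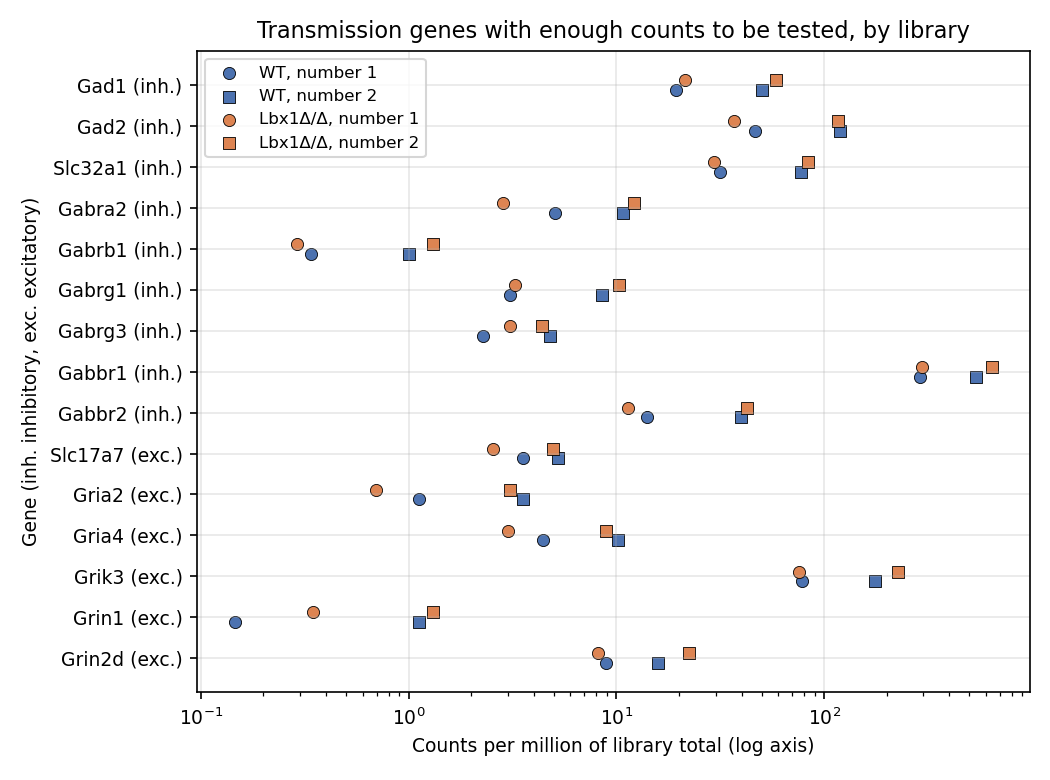
Levels of the 15 tested members in CPM (horizontal log axis), 1 point per library, with genotype label by colour and replicate number by shape. For each gene, both number 2 libraries lie to the right of both number 1 libraries, while the colours overlap.

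Transmission genes of both kinds were higher in the number 2 libraries than in the number 1 libraries, whatever the genotype label. Gad2 was at 46.7 and 36.8 CPM in WT 1 and the library labelled Lbx1Δ/Δ 1, and at 119 and 117 CPM in WT 2 and Lbx1Δ/Δ 2. The number 2 mean was 118 ± 2.04 CPM (SD, n = 2) against 41.7 ± 6.96 CPM (SD, n = 2), a fitted 2.79-fold ratio. Slc32a1 was at 80.7 ± 4.75 CPM (SD, n = 2) against 30.6 ± 1.35 CPM (SD, n = 2), a 2.60-fold ratio, and Gad1 had a 2.63-fold ratio. The adjusted p-values were 0.000234 for Gad2, 0.000261 for Slc32a1 and 0.000506 for Gad1 (edgeR quasi-likelihood test, two-sided, Benjamini-Hochberg over 10757 genes). Each number holds a library of either genotype label, so the spread in this test includes any difference between the labels.

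Receptor genes rose by similar factors. Gabbr2 was at 14.0 and 11.4 CPM in the number 1 libraries, WT first, and at 39.9 and 42.5 CPM in the number 2 libraries (3.19-fold, edgeR adjusted p = 0.000322). Gabbr1 was 1.98-fold higher, at 289 and 297 CPM against 536 and 642 CPM (edgeR adjusted p = 0.000527). Grik3 was at 78.0 and 75.5 CPM against 176 and 228 CPM, a log2 difference of 1.37 (SE 0.13) and an edgeR adjusted p of 0.000238. Gabra2 and Gabrg1 were 2.83-fold and 2.94-fold higher. Gria2, Gria4 and Grin2d had log2 differences of 1.83 (SE 0.41), 1.33 (SE 0.28) and 1.15 (SE 0.22), and all 5 passed (edgeR adjusted p = 0.00295 to 0.0102).

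Slc17a7 and Gabrg3 had smaller ratios that did not pass, 1.64-fold and 1.70-fold (edgeR adjusted p = 0.121 and 0.110). Of the 13 members with at least 10 counts in every library, 11 were thus called higher in number 2 and 0 lower, against 13.3% called higher and 12.2% lower of the 10757 genes, and 14.1% called higher of those with at least 10 counts in every library. The inhibitory members among them numbered 7 of 8, with a median log2 difference of 1.43, and the excitatory members 4 of 5, with a median of 1.33, while the median over all tested genes was 0.00021. Gabrb1 and Grin1 were also called (edgeR adjusted p = 0.0395 and 0.0236), but had 10 or more counts only in number 2, so their test shows little. Each of the 13 had both number 2 libraries above both number 1 libraries, as did 34.1% of all tested genes. Without WT 1, edgeR called 0 members and 1 gene in all, and without the library labelled Lbx1Δ/Δ 1 it called 0 members and 6 genes in all. The log2 difference of Gad2 was then 1.65 and 1.33 (edgeR adjusted p = 0.0886 and 0.0663).

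**Figure D3:**
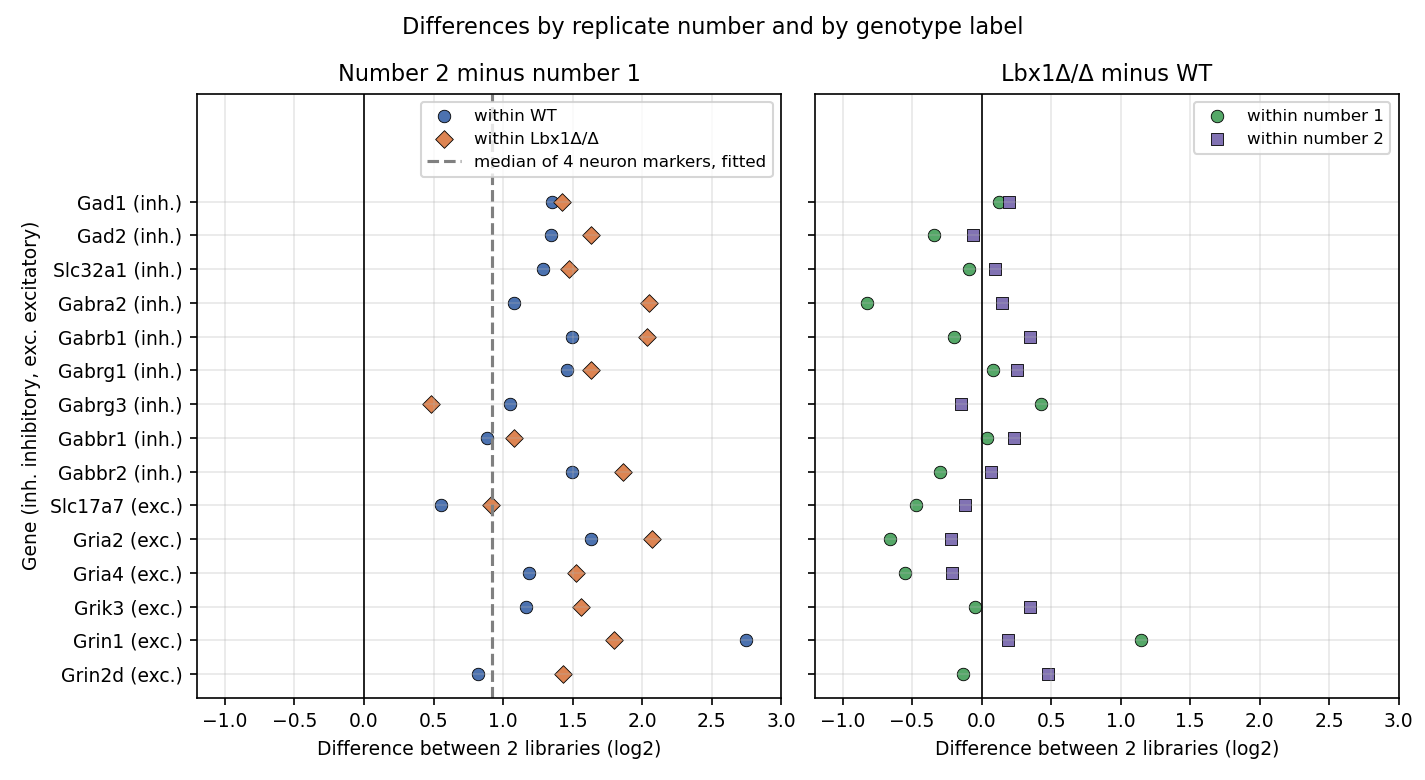
Log2 differences between single libraries for the 15 tested members: number 2 minus number 1 within each genotype label (left), and Lbx1Δ/Δ minus WT within each number (right). The left points are all above 0, mostly to the right of the dashed median of 4 neuron markers at 0.92, whereas the right points lie on both sides of 0.

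Markers of neurons and of several other tissues moved with the replicate number as well, while some lists did so little. Of all tested genes, 13.3% were called higher in number 2 and 12.2% lower. The 4 tested neuron markers (Tubb3, Stmn2, Elavl3 and Map2) were all called higher in number 2, with a median log2 difference of 0.92. The neuron list summed to 3148 and 3641 CPM in number 1 and to 5831 and 6874 CPM in number 2, WT first. All 4 tested markers of sensory ganglia were called higher too, with sums of 187 and 173 CPM against 355 and 458 CPM. Liver markers were called higher in 2 of 2 tested genes, with sums of 1.94 and 4.52 CPM against 8.02 and 19.8 CPM. Of 7 tested mesenchyme and cartilage markers 2 were called lower, with sums of 6192 and 4405 CPM against 4701 and 4188 CPM. Blood markers were lower in 4 of 4 tested genes, with sums of 8126 and 5813 CPM against 2754 and 2557 CPM. Skeletal muscle markers were called lower in 4 of 5 tested genes, with sums of 864 and 739 CPM against 409 and 129 CPM. Forebrain and midbrain markers were called lower in 3 of 3, with sums of 35.4 and 24.7 CPM against 4.13 and 2.37 CPM, and Six3 was at 0 in WT 2. Among these lists' other genes, Alas2, Tnnt1, Prph and Syt1, each with 2 or more accessions, had 0 counts in every library. Inhibitory dorsal neuron markers were called higher in 5 of 7 tested genes, excitatory dorsal neuron markers in 5 of 7 and motor neuron markers in 1 of 5. Of 7 tested neural progenitor markers 1 was called higher and 1 lower. None of 3 tested macrophage markers or 2 tested endothelial markers was called. In pools of tissue, more neurons and more RNA per neuron cannot be told apart, and the part of these tissues in the result was not tested.

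Set against the summed counts of the 4 neuron markers, most transmission genes were still higher in number 2. The 4 markers rose unequally, with log2 differences of 0.82 for Tubb3, 0.86 for Stmn2, 0.98 for Elavl3 and 1.43 for Map2. Tubb3 had the most counts of the 4 and so weighs most in the sum. The difference of Map2 was above the median of the 13 members counted below (1.38), so the outcome depends on the markers used. Gad2 had 14.8 and 20.5 counts per 1000 counts of the 4 neuron markers in WT 1 and 2, and 10.1 and 16.95 in the libraries labelled Lbx1Δ/Δ 1 and 2. Grik3 had 24.8, 30.2, 20.7 and 33.1, and Gabbr2 had 4.46, 6.85, 3.14 and 6.19, in the same order. Gabbr1, with 91.8, 92.0, 81.6 and 93.3, moved about as much as the sum of the neuron markers did. Of the 13 members with at least 10 counts in every library, 10 were higher per neuron marker count in number 2 within both labels, against 6.33% of all tested genes. The 6.33% is not a like comparison for the members. The neuron markers rose with the replicate number (median log2 difference 0.92), whereas the median over all tested genes was 0.00021, so most genes fall when divided by them. That the members rose was already known from the test above. The exceptions were Gabrg3, Slc17a7 and Grin2d. Gabbr1 is counted as higher, although its log2 difference per neuron marker count was only 0.0029 in WT.

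Other genes of these pathways, 39 in a list of transporters, enzymes and receptors, went the same way where they changed. Of 10 tested inhibitory genes 4 were called higher in number 2, and of 15 tested excitatory genes 7 were, with 0 called lower (13.3% and 12.2% of all tested genes). Slc6a11 and Slc6a13, plasma membrane transporters that clear GABA, had log2 differences of 2.24 and 1.67. Slc17a6, the vesicular glutamate transporter VGLUT2 of spinal neurons, had one of 1.32 (SE 0.24), with 137 and 306 counts in the WT pair against 169 and 397 in the other pair. Slc1a3, the glutamate transporter of radial glia and astrocytes, had one of 0.81 (SE 0.095). Slc12a2, the cotransporter that loads young neurons with chloride, had −0.41 (SE 0.14, edgeR adjusted p = 0.0558). Slc12a5, which extrudes chloride from mature neurons, had 1 and 4 counts in number 1 and 12 and 22 in number 2 over 3 accessions. It is among the 4 inhibitory genes called, but had 10 or more counts only in number 2, so its test shows little. Slc6a9, the glycine transporter GlyT1, had a log2 difference of 0.99 (SE 0.43), which did not pass (edgeR adjusted p = 0.124). By genotype, 0 of these 25 tested genes were called, and Slc17a6 had a log2 difference of 0.42 (SE 0.65).

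Between the genotype labels no transmission gene passed the test. By edgeR's quasi-likelihood test on genotype, 0 of the 15 tested members were called, as were 0.0% of all 10757 genes, and 0 members had an unadjusted p below 0.05. DESeq2 and limma-voom also called 0 members, with 0 at an unadjusted p below 0.05. The 9 inhibitory members had a median log2 difference of 0.07, with 6 above and 3 below 0. The 6 excitatory members had a median of −0.0072, with 3 on each side of 0, and the median over all tested genes was −0.0026. None of the 15 tested members had both libraries labelled Lbx1Δ/Δ above, or both below, both WT libraries, where 11.3% and 9.31% of all tested genes did.

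The spread that the replicate numbers brought was wide. The Gad2 level averaged 83.0 ± 51.4 CPM for WT and 76.6 ± 56.3 CPM for the libraries labelled Lbx1Δ/Δ (SD, n = 2 each), a log2 difference of −0.13 (SE 0.69). Grik3 averaged 127 ± 69.4 and 152 ± 108 CPM (SD, n = 2 each), a log2 difference of 0.24 (SE 0.64). Gria2 and Gria4 had log2 differences of −0.31 (SE 0.91) and −0.31 (SE 0.68), and Slc17a7 one of −0.25 (SE 0.47). Standard errors of the 15 members ran from 0.47 to 1.11, where 1 is a 2-fold difference, so moderate genotype differences were not detectable in this fit, which leaves the difference between replicate numbers in the spread. For each of the 15 members, leaving out some library turned the sign of the fitted difference.

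Within a replicate number the labels differed in either direction. Gad1, Gabbr1 and Gabrg1 were higher in the library labelled Lbx1Δ/Δ within both numbers, by 0.13 and 0.20, by 0.04 and 0.23, and by 0.08 and 0.26 on the log2 scale. Grin1 was too, on low counts, so that 4 of 15 members were (28.4% of all tested genes). Gad2 was lower within both, at −0.34 and −0.06, as were Gria2 (−0.66 and −0.22), Gria4 (−0.55 and −0.21) and Slc17a7 (−0.47 and −0.12), again 4 of 15 (30.9% of all tested genes). Both counts are near the shares over all genes. Gabra2 differed most between the numbers, with −0.83 in number 1 and 0.15 in number 2.

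Ratios between members do not depend on the library total. Gad1 had 0.417 and 0.419 counts per Gad2 count in WT 1 and 2, and 0.578 and 0.501 in the libraries labelled Lbx1Δ/Δ 1 and 2. Slc32a1 had 0.676 and 0.648 against 0.805 and 0.721, and Grik3 had 1.67 and 1.48 against 2.05 and 1.95. Both libraries labelled Lbx1Δ/Δ thus lay above both WT libraries for these genes, and Gabrg1, Grin1 and Grin2d did likewise. The gap was narrow for Grin2d, with 0.191 and 0.132 against 0.220 and 0.193, and Grin1 rested on 3 to 22 counts per library and had 10 or more only in number 2. That made 6 of the 14 other tested members (5.32% of all tested genes relative to Gad2). Gria4 alone was lower without overlap (0.493% of all tested genes), and Gria2, Gria4 and Slc17a7, 3 of the 14, were lower within both numbers (7.35%). The 5.32% and 0.493% are not a like comparison for the members. Gad2 rose 2.79-fold with the replicate number and the tested members rose too, whereas the median log2 difference over all tested genes was 0.00021. Divided by Gad2, most other genes therefore differ by number within both labels, and few could separate by label. Gad2 itself was lower within both numbers, which lowers the 7.35%.

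Relative to the 4 neuron markers the picture by label was another. No member was higher without overlap in the libraries labelled Lbx1Δ/Δ (3.16% of all tested genes), and 2 excitatory members were lower without overlap (5.4%). These were Slc17a7, with 1.13 and 0.901 counts per 1000 neuron marker counts in WT against 0.701 and 0.717, and Gria4, with 1.41 and 1.74 against 0.828 and 1.30. Within both numbers 5 inhibitory members (Gad1, Gad2, Slc32a1, Gabra2 and Gabbr2) and 3 excitatory members (Slc17a7, Gria2 and Gria4) were lower, where 62.8% of all tested genes were. The neuron markers themselves were higher in the libraries labelled Lbx1Δ/Δ within both numbers, with median log2 differences of 0.20 and 0.29. They also rose with the replicate number (median log2 difference 0.92), so the 3.16% and 5.4% are not a like comparison for the members.

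The excitatory transporters went different ways relative to Gad2. For Slc17a6 the WT pair had 0.143 and 0.151 counts per Gad2 count, against 0.266 and 0.202 for the pair labelled Lbx1Δ/Δ. Relative to Slc32a1 it had 0.211 and 0.234 against 0.331 and 0.280, and relative to Gad1 0.342 and 0.361 against 0.460 and 0.404, without overlap in either case. Per 1000 neuron marker counts it had 2.12 and 3.10 against 2.69 and 3.43, which overlap. Slc17a7 had 0.0760 and 0.0440 counts per Gad2 count in WT against 0.0693 and 0.0423, which overlap. These ratios were looked at after the values of the genes had been seen, carry no test, and rest on 2 pools a label. Slc17a6 has 2 accessions, and Gad2, the shared denominator, moves all ratios to it together. Gad1, Gad2 and Slc32a1 rose together with the replicate number, as Slc17a6 did, so its ratios to them are not separate results. Relative to Gad2, 5.32% of all tested genes were higher without overlap, with the limit given above. The share relative to Slc32a1 or Gad1 was not computed.

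**Figure D4:**
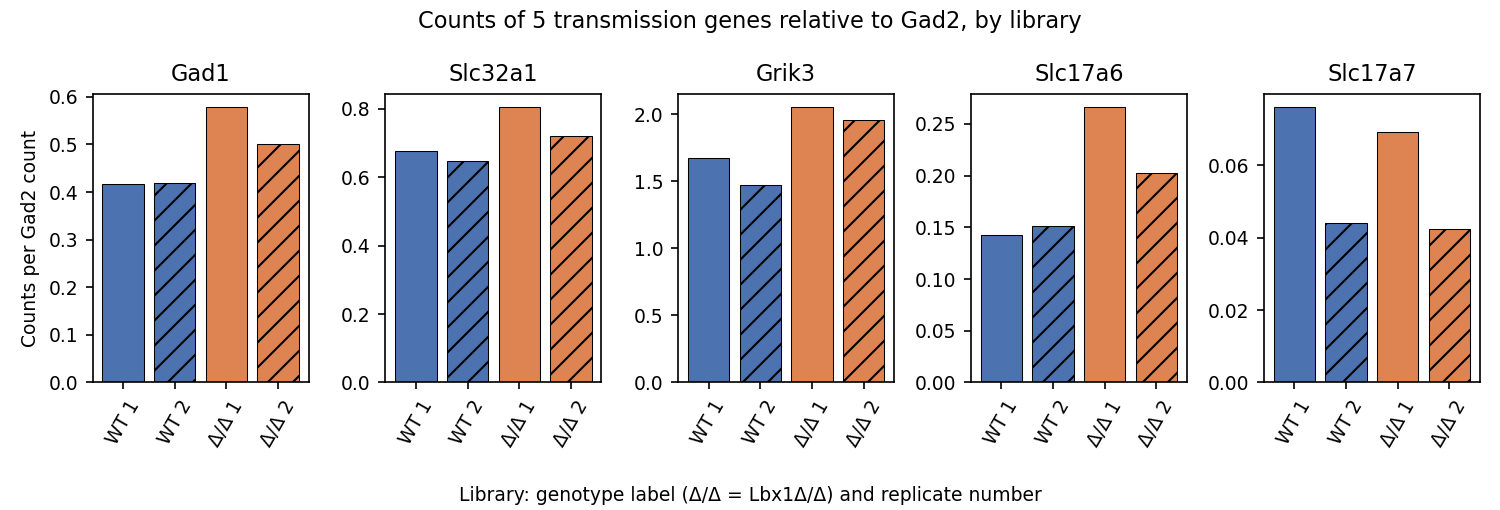
Counts of Gad1, Slc32a1, Grik3, Slc17a6 and Slc17a7 per Gad2 count in each library (bars from 0; colour is the genotype label, hatching marks replicate number 2). Both bars labelled Lbx1Δ/Δ exceed both WT bars for the first 4 genes, whereas for Slc17a7 they follow the replicate number.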

How the data were processed

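RNA-seq counts of 4 pools of E12.5 neural tubes were used (2 labelled WT, 2 labelled Lbx1Δ/Δ). The authors deposited raw read counts per RefSeq transcript. Build mm9, edgeR 3.4.3, featureCounts 4.6.0.1 and TopHat2 2.1.1 are named per the submitters' processing notes. For the annotation, strand setting and shared reads, the choice is not given in the sources used here. Reads of opposite-strand genes that overlap exons of Slc32a1, Grin1, Grin2d, Grin2b, Glra1 or Gphn may therefore be included. Of 41411 accessions, 41218 were named from RefSeq's GRCm38 gene table and 97 from GENCODE (96 stayed unnamed), and counts were summed per symbol. Counts of Gad1, Gria2, Gria4, Grin1 and Slc17a6, which have more than 1 accession, may be incomplete.

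CPM are relative to library totals. Tests used edgeR 4.0.16 in R 4.3.3: filterByExpr by genotype at its defaults (minimum count 10, minimum total 15), TMM scaling (factors 0.993, 0.998, 0.994 and 1.015 for WT 1 and 2 and Lbx1Δ/Δ 1 and 2), glmQLFit and glmQLFTest, two-sided, on genotype or on replicate number alone, with Benjamini-Hochberg adjustment over 10757 genes at 0.05. SE values are the log2 difference over the root of F. Differences between single libraries are of TMM-scaled log2 CPM with 0.5 counts added. The tests were checked on simulated counts. Chi-square per degree of freedom between libraries of a group was 76.1 and 93.1, so libraries within a group were not duplicates of each other. Libraries of separate labels were not compared in this way. Transcript lengths and exon models came from a GENCODE annotation of GRCm38, and no mm9 coordinates are given. Alternatives were RLE, upper-quartile and library-total scaling, DESeq2 1.42.0, limma-voom (limma 3.58.1), other low-count filters, genes with 1 accession, the other label as a term, and leaving out each library. The members, lists and tests were chosen with earlier results of these data known. By rule all 34 members could be named, with Lbx1, named transporters of the pathway list and up to 3 markers per tissue. Some genes the rule names are not reported here. Slc6a11, Slc6a13 and further markers at 0 counts were chosen after their values were seen.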

Additional observations from a re-analysis of the deposited data

How the results depend on the processing

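Results for replicate number kept their direction for each tested member in every alternative or library left out that gave it a value. Gad1, Gria2, Gria4 and Grin1 had none with genes of 1 accession. The count of members called higher in number 2 stayed at 9 to 13 under the alternatives that kept all libraries (9 of 11 with genes of 1 accession). DESeq2 called 11 and gave no adjusted p for Gabrb1 and Grin1, and Gabrb1 was not called without the low-count filter. Leaving out a library gave 0 to 12 called members and 1 to 3917 called genes, and the low counts came without either number 1 library. For genotype, the replicate block (the number as a term beside genotype) called 92 genes, 29 higher and 63 lower, and 0 members, with adjusted p-values of 0.460 or more for them. Standard errors with the block were smaller, from 0.095 for Grik3 to 0.63 for Grin1, and Gad2 had a log2 difference of −0.19 (SE 0.10). Number 1 libraries of the separate labels deviated together (r = 0.623 across genes, which are not replicates), but the labels do not state a pairing, and 2 pairs are too few to check it. Gabbr2 turned from −0.019 to 0.0081 with upper-quartile scaling, 0.00071 with library totals and 0.0017 with genes of 1 accession. Leaving out a library gave genotype log2 differences of −0.71 to 1.01 for Gad1, −1.17 to 0.69 for Gad2, −0.88 to 0.82 for Slc32a1, −1.47 to 0.61 for Gabra2, −1.18 to 1.18 for Gabrb1, −0.83 to 1.12 for Gabrg1, −0.35 to 0.68 for Gabrg3, −0.48 to 0.67 for Gabbr1, −1.24 to 0.91 for Gabbr2, −0.78 to 0.15 for Slc17a7, −1.73 to 0.73 for Gria2, −1.27 to 0.40 for Gria4, −0.75 to 0.93 for Grik3, −0.82 to 2.42 for Grin1 and −0.61 to 0.85 for Grin2d. With 1 library left under a label or number, it is taken to vary like the others. The members detected numbered 12 to 17 under the other count minimums. The cause of these changes was not tested.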
